A study of Mus musculus with 36 samples.

Results

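Mcpt8, Prss34, Cpa3, Fcer1a, Ms4a2, Cd200r3 and Hdc are 7 genes known for their use in basophils and mast cells. They were picked by gene name, and each name matched 1 gene in each of the 3 deposited expression tables, which is 7 of the 55573 Ensembl genes listed in all of them. The RNA came from wild-type mice, in 12 groups of 3 libraries. Each of 4 cell populations was sampled after PBS, the saline control, and after the treatments named OMV-SIRP and OMV-SIRP-G. Granulocyte-macrophage progenitors (GMP) and monocytes were bone marrow cells. Tumour-associated macrophages (TAM) were taken from B16-F10 tumours, a transplantable mouse melanoma, and from MC38 tumours, a transplantable mouse colon carcinoma. OMV usually stands for outer membrane vesicle, a particle shed by bacteria, but the labels used here spell out neither treatment name and give no dose and no age of the mice. The design text speaks of pooling 3 samples per group, so the 3 libraries may not stand for 3 separate animals, and p-values measure the spread between these libraries, which may be technical.

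Basophils and mast cells carry the high-affinity receptor for immunoglobulin E (IgE), and antigen binding to that IgE makes them release stored histamine and proteases and newly made cytokines and lipid mediators. Basophils mature in the bone marrow from progenitors within or next to the granulocyte-macrophage compartment, whereas mast cells mature in tissues, where the chymases and tryptases of their granules mark them. Mcpt8 and Prss34 encode granule serine proteases known chiefly from basophils. Cpa3 is the granule carboxypeptidase of mast cells, and basophils and their progenitors express it too. Fcer1a encodes the IgE-binding alpha chain of the receptor and Ms4a2 its signal-amplifying beta chain. Cd200r3 is an activating surface receptor of basophils and mast cells, and Hdc, histidine decarboxylase, makes histamine and is also used by other myeloid cells.

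The genes lie on 7 chromosomes of the mouse build GRCm38, at the positions that the deposited tables give. Mcpt8 (ENSMUSG00000022157) spans chromosome 14, 56082166 to 56085273, on the minus strand, and Prss34 (ENSMUSG00000056399) spans chromosome 17, 25298394 to 25300165, on the plus strand. Cpa3 (ENSMUSG00000001865) lies on chromosome 3, 20215620 to 20242181, minus strand, and Fcer1a (ENSMUSG00000005339) on chromosome 1, 173221284 to 173227214, minus strand. Ms4a2 (ENSMUSG00000024680) lies on chromosome 19, 11615523 to 11623719, minus strand, and Cd200r3 (ENSMUSG00000036172) on chromosome 16, 44943678 to 44981380, plus strand. Hdc (ENSMUSG00000027360) covers chromosome 2, 126593667 to 126619299, on the minus strand. In the GENCODE M21 annotation a microRNA gene lies on the same strand within Mcpt8 (Mir6949) and within Cpa3 (Mir7007), and no other gene overlaps the remaining 5.

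The bases upstream of 5 genes are shown because Prss34, Mcpt8, Ms4a2 and Cd200r3 were lower in GMP after both treatments while Cpa3 was not. They come from RefSeq (GRCm38.p6), where all 7 were found, and run 5′ to 3′ on the gene's strand, ending at the base before the gene as the deposited tables place it. Capitals mark GATAA or its reverse complement TTATC, the core of the site that GATA transcription factors bind. For Mcpt8 the RefSeq start lies inside that gene span, so 76 bases are left out.
Prss34, chr17:25298144-25298393, plus strand: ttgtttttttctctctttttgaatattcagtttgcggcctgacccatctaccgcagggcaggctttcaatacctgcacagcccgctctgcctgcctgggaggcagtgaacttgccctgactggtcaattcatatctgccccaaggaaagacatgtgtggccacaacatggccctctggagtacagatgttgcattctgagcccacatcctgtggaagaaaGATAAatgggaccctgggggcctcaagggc
Mcpt8, chr14:56085274-56085447, minus strand: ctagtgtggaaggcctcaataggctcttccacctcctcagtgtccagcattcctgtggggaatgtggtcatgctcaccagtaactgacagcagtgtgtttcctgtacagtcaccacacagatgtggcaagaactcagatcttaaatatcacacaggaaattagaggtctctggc
Ms4a2, chr19:11623720-11623969, minus strand: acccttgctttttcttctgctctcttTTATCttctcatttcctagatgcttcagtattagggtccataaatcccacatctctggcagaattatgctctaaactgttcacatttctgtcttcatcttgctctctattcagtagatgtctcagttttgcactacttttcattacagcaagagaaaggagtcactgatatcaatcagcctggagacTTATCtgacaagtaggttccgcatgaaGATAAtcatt
Cd200r3, chr16:44943428-44943677, plus strand: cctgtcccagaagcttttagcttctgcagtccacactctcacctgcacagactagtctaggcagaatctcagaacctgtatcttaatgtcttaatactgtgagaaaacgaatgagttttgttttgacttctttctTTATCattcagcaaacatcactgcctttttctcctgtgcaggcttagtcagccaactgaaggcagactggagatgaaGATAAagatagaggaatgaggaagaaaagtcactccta
Cpa3, chr3:20242182-20242431, minus strand: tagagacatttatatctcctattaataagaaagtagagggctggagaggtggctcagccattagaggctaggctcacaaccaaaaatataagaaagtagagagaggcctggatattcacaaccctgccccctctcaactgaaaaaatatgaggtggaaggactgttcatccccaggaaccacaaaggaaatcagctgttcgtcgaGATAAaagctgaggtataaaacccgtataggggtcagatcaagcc
In the 250 bases before the RefSeq start, GATAA was found on either strand in 5 of the 7 genes and in 22.6% of all 32851 such windows in the table. Ms4a2 held 3 matches, at 224, 37 and 10 bases before the start, Cd200r3 held 2, and Prss34, Cpa3 and Fcer1a held 1 each, at 30, 45 and 92 bases. Mcpt8 and Hdc held none. TGTGGT, the core of RUNX sites, was found on either strand in 3 genes (Mcpt8, Cpa3 and Fcer1a) and in 14.1% of all windows. CATGTG or CACGTG, E-boxes of the kind that MITF binds, were found in 2 genes (Prss34 and Fcer1a) and in 17.6% of all windows, and TTCNNNGAA, a STAT motif, in 0 of 7 and in 7.02%. CATGTG and TGTGGT can share letters at their ends. A match describes the letters and is no evidence of binding.

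Levels are given as FPKM, fragments per kilobase of gene length scaled for sequencing depth, so levels can be compared between genes. The libraries held between 13036567 and 19822660 reads on genes. In MC38 TAM the Pearson r between libraries of 1 group, over genes on the log2(FPKM + 1) scale, was between 0.810 and 0.950, whereas in GMP no pair was below 0.980. Among genes with at least 20 reads in 1 library of a group, at most 0.00753% had 0 reads in another library of that group in GMP, and at most 0.509% in monocytes. In the tumour tables that share lay between 10.2% and 20.7% for B16 TAM and between 12.4% and 38.2% for MC38 TAM, so there a gene can be listed at 0 beside a replicate with 20 or more reads. The summed FPKM of 8 macrophage markers was 4324 to 9870.5 in B16 TAM and 1319 to 2209 in the treated MC38 TAM. In the MC38 TAM libraries labelled PBS it was 63.1 to 169.5, so these 3 libraries nearly lacked the defining markers of the labelled cells.

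All 7 genes were expressed in GMP, and 3 of them at lower levels in monocytes. Under PBS the GMP order was Prss34 (559 ± 67.9 FPKM, mean ± SD, n = 3), Mcpt8 (159.7 ± 15.1), Cpa3 (79.8 ± 5.96), Hdc (53.1 ± 2.42), Ms4a2 (27.4 ± 0.910), Fcer1a (13.4 ± 1.49) and Cd200r3 (5.33 ± 0.187). Neighbours in that order did not overlap between libraries, and the order was the same after both treatments. In monocytes under PBS, Prss34 was at 21.5 ± 10.1 FPKM, Mcpt8 at 8.59 ± 5.18 and Hdc at 5.43 ± 0.993, and each exceeded an FPKM of 1 in all 9 libraries. Cpa3, Fcer1a and Cd200r3 stayed under 1 in every monocyte library, and Ms4a2 in all but PBS replicate 2, at 1.03. GMP and monocytes share a table. The GMP mean under PBS was 9.77 times the monocyte mean for Hdc, 18.6 times for Mcpt8, 26.0 times for Prss34, 44.2 times for Ms4a2 and 122 times for Cpa3, given as a description. For Fcer1a the PBS monocyte libraries held 2, 2 and 1 reads.

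**Figure D1:**
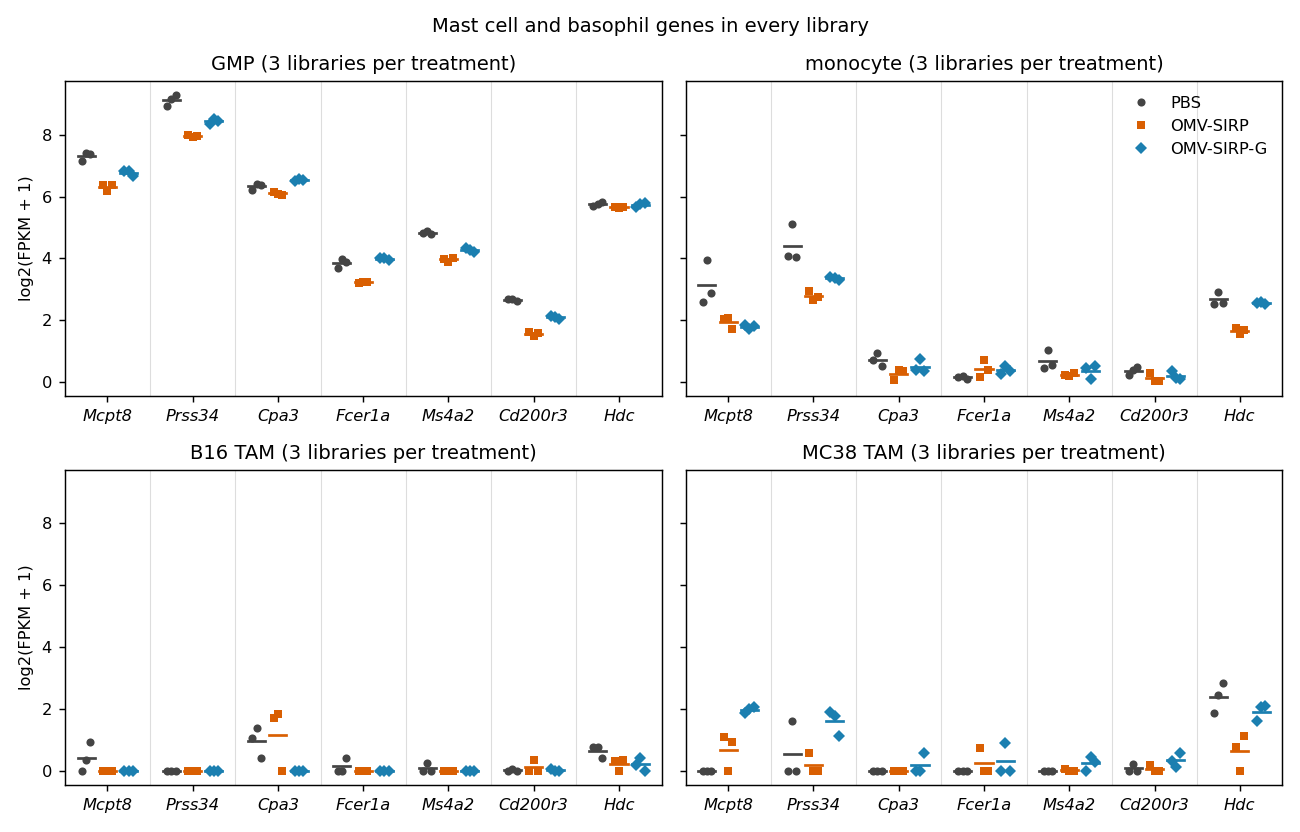
Log2(FPKM + 1) of the 7 genes (x axis) in each of the 36 libraries, by population. Points are libraries and short bars are means of 3. In GMP all 7 genes are expressed, in monocytes Mcpt8, Prss34 and Hdc stand out, and in B16 and MC38 TAM most points lie at or near 0.

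In GMP, OMV-SIRP lowered the basophil proteases, both receptor chains and Cd200r3, while Cpa3 fell little. Of the 7 genes, 6 passed the test as lower (limma, adjusted p under 0.05 over all genes tested), where 7.52% of the 12287 genes tested were called lower. All 7 had every OMV-SIRP library below every PBS library, as 16.4% of genes tested did. The median log2 change of the 7 was -0.86, against 0.02 over all genes tested. In bulk RNA, fewer cells of a type and less RNA per cell cannot be told apart.

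The granule proteases carried most of this RNA. Prss34 was at 485, 575 and 619 FPKM under PBS, at 252, 244 and 245 after OMV-SIRP and at 327, 361 and 348 after OMV-SIRP-G. The 3 groups did not overlap, with PBS highest and OMV-SIRP lowest. Its log2 change was -1.17 ± 0.09 (SE) with OMV-SIRP (adjusted p = 3.87e-05), -0.69 ± 0.09 with OMV-SIRP-G (adjusted p = 0.000993) and 0.48 ± 0.09 between OMV-SIRP-G and OMV-SIRP (adjusted p = 0.00689). Mcpt8 was at 143, 171 and 166 FPKM under PBS, at 81.4, 70.9 and 82.1 after OMV-SIRP and at 113, 112 and 101 after OMV-SIRP-G. The groups again did not overlap and kept the order seen for Prss34. Its log2 changes in the same comparisons were -1.02 ± 0.09 (adjusted p = 6.97e-05), -0.55 ± 0.09 (adjusted p = 0.00333) and 0.47 ± 0.09 (adjusted p = 0.00709).

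Cpa3, the carboxypeptidase, followed another course. It was at 73.2, 84.7 and 81.5 FPKM under PBS, at 70.6, 67.0 and 65.9 after OMV-SIRP and at 90.5, 93.2 and 91.5 after OMV-SIRP-G. The OMV-SIRP libraries lay below all PBS libraries and the OMV-SIRP-G libraries above them. The fall with OMV-SIRP was small (log2 change -0.23 ± 0.06, adjusted p = 0.0279). That call was lost without PBS replicate 2 (adjusted p = 0.089), PBS replicate 3 (0.0658), OMV-SIRP replicate 2 (0.0919) or OMV-SIRP replicate 3 (0.0991). It was also lost without the filter on low values (0.0643) and in a fit of only the 2 groups (0.0742). The difference between OMV-SIRP-G and PBS (0.20 ± 0.06) had an adjusted p of 0.0602, and of 0.0484 without PBS replicate 2. Between the treatments Cpa3 was higher with OMV-SIRP-G by 0.43 ± 0.06 (adjusted p = 0.00153).

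The receptor chains stood apart from each other after OMV-SIRP-G. Fcer1a, the alpha chain, was at 11.8, 14.7 and 13.6 FPKM under PBS, at 8.24, 8.38 and 8.44 after OMV-SIRP and at 15.2, 15.0 and 14.4 after OMV-SIRP-G. The OMV-SIRP libraries lay below all others, and the OMV-SIRP-G libraries overlapped the PBS libraries. Fcer1a fell with OMV-SIRP (-0.61 ± 0.07, adjusted p = 0.000402), and the log2 difference between OMV-SIRP-G and PBS was 0.14 ± 0.07 (95% interval -0.01 to 0.30, adjusted p = 0.235). From OMV-SIRP to OMV-SIRP-G it rose by 0.76 ± 0.07 (adjusted p = 0.000239). Ms4a2, the beta chain, was at 27.0, 28.4 and 26.7 FPKM under PBS, at 14.9, 13.9 and 15.0 after OMV-SIRP and at 19.0, 18.3 and 17.6 after OMV-SIRP-G. Here both treated groups lay below PBS. Ms4a2 fell by 0.86 ± 0.05 with OMV-SIRP (adjusted p = 8.69e-06) and by 0.56 ± 0.05 with OMV-SIRP-G (adjusted p = 0.00012), and the difference between the treatments was 0.30 ± 0.05 (adjusted p = 0.00399). Whether the 2 chains differed in their response was not tested directly.

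Cd200r3, the activating receptor, had the lowest level of the 7 and fell to 36.7% of its PBS mean with OMV-SIRP. It was at 5.42, 5.44 and 5.11 FPKM under PBS, at 2.08, 1.80 and 1.98 after OMV-SIRP and at 3.42, 3.28 and 3.12 after OMV-SIRP-G, from 171 to 610 reads per library. The groups did not overlap. Its log2 change was -1.10 ± 0.06 with OMV-SIRP (adjusted p = 6.54e-06), -0.57 ± 0.06 with OMV-SIRP-G (adjusted p = 0.000358) and 0.53 ± 0.06 between them (adjusted p = 0.000608). Hdc, the histamine-forming enzyme, was at 50.6, 53.4 and 55.4 FPKM under PBS, at 49.8, 48.7 and 49.3 after OMV-SIRP and at 50.1, 53.1 and 53.8 after OMV-SIRP-G. The OMV-SIRP libraries lay just below the PBS libraries and the OMV-SIRP-G libraries overlapped them. None of the 3 Hdc differences passed the test, at a log2 change of -0.10 ± 0.05 with OMV-SIRP (adjusted p = 0.172), -0.02 ± 0.05 with OMV-SIRP-G (adjusted p = 0.842) and 0.08 ± 0.05 between them (adjusted p = 0.277). With FPKM rescaled to total reads, Hdc was called lower with OMV-SIRP (-0.20, adjusted p = 0.00728) and higher with OMV-SIRP-G than with OMV-SIRP (0.17, adjusted p = 0.0224).

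Against PBS, OMV-SIRP-G left 4 of the 7 genes called lower (Prss34, Mcpt8, Ms4a2 and Cd200r3), where 5.22% of genes tested were called lower, and 0 called higher by limma, where 6.76% were. At an unadjusted p under 0.05 Cpa3 passed too, as higher and so opposite in direction to the 4 lower genes. Limma voom on recovered reads also called Cpa3. Against OMV-SIRP, 6 of 7 were called higher with OMV-SIRP-G, all but Hdc, where 6.70% of genes tested were called higher. All 7 had every OMV-SIRP-G library above every OMV-SIRP library, as 18.6% of genes tested did. Each pair of these comparisons shares 1 group of libraries.

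**Figure D2:**
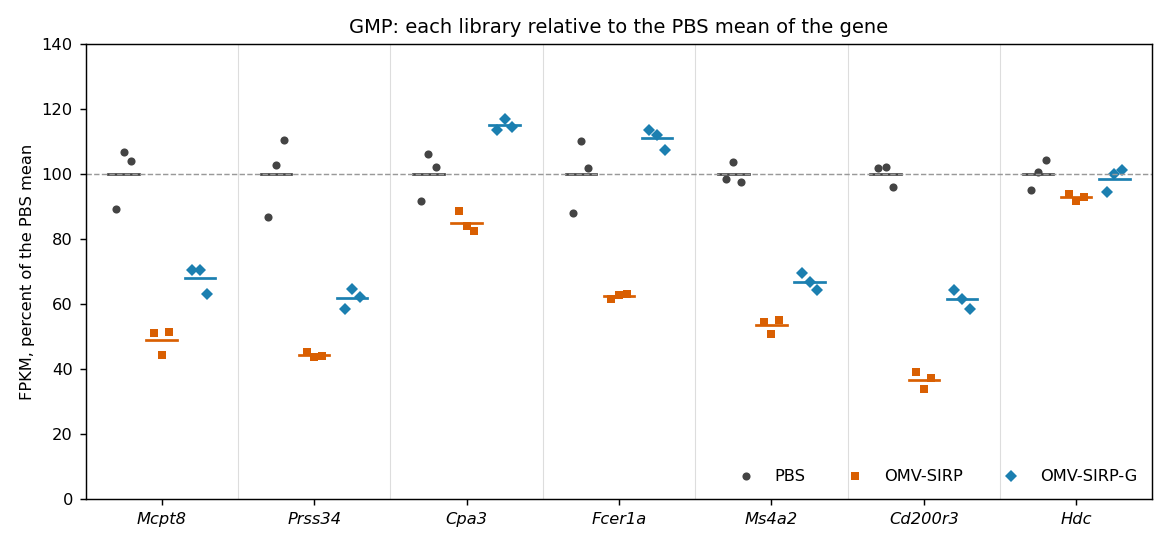
FPKM of the 7 genes in each GMP library as a percent of the gene's PBS mean. Points are libraries and bars are means of 3. After OMV-SIRP the means run from 36.7% for Cd200r3 to 92.8% for Hdc, and after OMV-SIRP-G from 61.4% for Cd200r3 to 115% for Cpa3.

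The makeup of the summed RNA of the 7 genes shifted too. The sum was 796 to 967 FPKM in the PBS libraries, 454 to 479.5 after OMV-SIRP and 618 to 656 after OMV-SIRP-G. Prss34 made up 62.2 ± 1.57% of it under PBS, 52.9 ± 0.637% after OMV-SIRP and 54.4 ± 1.30% after OMV-SIRP-G. The share of Cpa3 was 8.91 ± 0.415%, 14.5 ± 0.383% and 14.5 ± 0.231%, and that of Hdc 5.94 ± 0.362%, 10.5 ± 0.165% and 8.25 ± 0.261%. On the log2 scale the ratio of Prss34 to Cpa3 was 2.81 ± 0.10 under PBS, 1.87 ± 0.03 after OMV-SIRP and 1.91 ± 0.05 after OMV-SIRP-G. The PBS ratios lay above all treated ratios, which gives the smallest p that 3 libraries against 3 allow in an exact two-sided permutation test, 0.1 (0.129 after Benjamini-Hochberg adjustment over 18 such ratios).

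Related genes of the lineage were followed as 4 lists. Among growth receptors and transcription factors, 8 of the 16 genes tested fell in GMP with OMV-SIRP and 0 rose, where 7.52% of all genes tested were called lower and 10.6% higher. The median log2 change of the list was -0.19. Gata2, a transcription factor needed for basophil and mast cell development, was at 31.2 ± 2.60 FPKM under PBS, 18.4 ± 1.09 after OMV-SIRP and 23.1 ± 1.02 after OMV-SIRP-G, and was lower than PBS with both (-0.73 ± 0.07, adjusted p = 0.000113, and -0.42 ± 0.07, adjusted p = 0.00405). Il1rl1, the receptor for interleukin-33, was at 4.71 ± 0.240, 2.08 ± 0.109 and 3.10 ± 0.103 FPKM in the same order. Csf2rb2, the beta chain of the mouse interleukin-3 receptor, was at 46.6 ± 5.82, 23.0 ± 0.518 and 36.6 ± 1.12 FPKM. Both were called lower than PBS with both treatments. Gata1, which also marks erythroid and eosinophil precursors, fell with OMV-SIRP from 6.48 ± 0.672 to 3.10 ± 0.159 FPKM and was at 5.53 ± 0.634 with OMV-SIRP-G (adjusted p = 0.205 against PBS). With OMV-SIRP-G against PBS the list had 4 genes lower and 2 higher, where 5.22% and 6.76% of all genes tested were called. Against OMV-SIRP it had 9 higher and 0 lower, where 6.70% and 8.12% were called.

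Of the cytokine and chemokine list, 5 of 10 genes were tested in GMP, and these 5 fell with OMV-SIRP and were higher with OMV-SIRP-G than with OMV-SIRP, where 7.52% and 6.70% of all genes tested were called in these directions. Il4, a cytokine that basophils make, was at 2.71 ± 0.627 FPKM under PBS, 0.713 ± 0.163 after OMV-SIRP and 1.90 ± 0.396 after OMV-SIRP-G. Il6 was at 2.16 ± 0.231, 0.698 ± 0.0723 and 1.99 ± 0.223 FPKM, and Csf1, the macrophage growth factor, at 15.4 ± 2.24, 5.45 ± 0.304 and 10.8 ± 0.345 FPKM. The chemokine gene Ccl3 was at 128 ± 4.68, 81.3 ± 1.37 and 166 ± 6.77 FPKM. OMV-SIRP-G put Ccl3 above PBS (0.38 ± 0.05, adjusted p = 0.00134) and left Csf1 below it (-0.47 ± 0.09, adjusted p = 0.0085), while Il4 and Il6 had adjusted p of 0.182 and 0.644.

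Of 13 genes of IgE receptor signalling tested in GMP, 4 fell with OMV-SIRP and 0 rose, where 7.52% and 10.6% of all genes tested did, and the median log2 change of the list was -0.05. The Src-family kinase gene Fyn went from 4.84 ± 0.205 to 2.58 ± 0.288 FPKM (-0.71 ± 0.07, adjusted p = 0.00023) and the adaptor gene Lat from 2.53 ± 0.232 to 1.57 ± 0.0856 FPKM (-0.45 ± 0.08, adjusted p = 0.00346). The other two were Gab2 (-0.36 ± 0.08) and Btk (-0.14 ± 0.04). Of 8 granule and lipid mediator genes tested, out of 19 listed, 5 fell and 1 rose with OMV-SIRP, to be read against the same shares. Gzmb, a granule protease shared with cytotoxic lymphocytes, fell (-0.83 ± 0.06), as did Ndst2, which acts in making the heparin of mast cell granules (-0.57 ± 0.07), and Slc18a2, a transporter that loads histamine into granules (-0.53 ± 0.09). Alox5, which starts leukotriene synthesis, rose (0.35 ± 0.05, adjusted p = 0.000935).

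**Figure D3:**
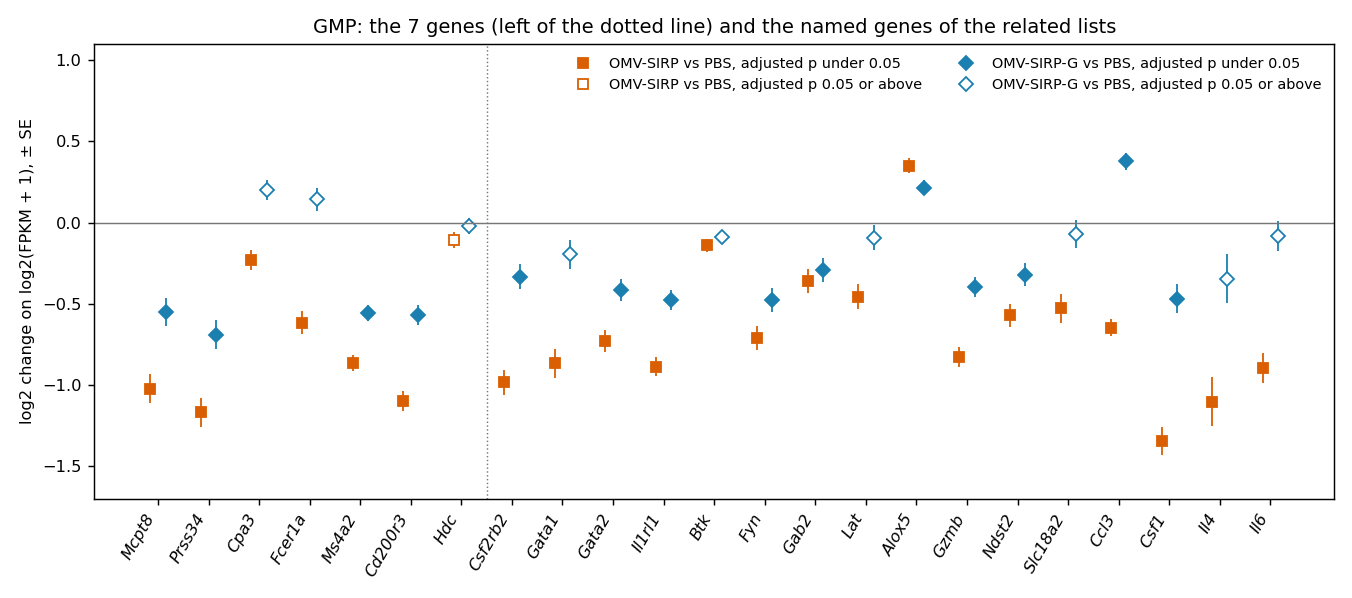
Log2 change ± SE against PBS in GMP for the 7 genes and for genes named from the 4 related lists. Filled symbols passed the test and open symbols did not. Alox5 lies above 0 with both treatments and Ccl3 on opposite sides of 0.

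Markers of other cell types moved in the same GMP libraries, and their part in the changes of the 7 genes was not tested. The summed FPKM of 6 eosinophil markers, all detected, was 3150.1 to 4157 under PBS, 2406 to 2737 after OMV-SIRP and 2836 to 2936 after OMV-SIRP-G. Prg2 made up most of that sum. With OMV-SIRP-G the libraries lay below PBS for Prg2, Epx and Il5ra and overlapped PBS for Siglecf and Prg3. Ccr3 went the other way, from 5.07, 6.27 and 5.10 FPKM under PBS to 8.37, 7.47 and 7.55 after OMV-SIRP-G. The sum of 7 neutrophil markers was 21695 to 31566, 44622 to 47503 and 27992 to 29845, and that of 7 erythroid markers 41.4 to 56.5, 7.34 to 8.94 and 9.88 to 11.7. The 8 GMP markers stayed between 5365 and 6633 in all 9 libraries. Mast cell markers were nearly absent. Tpsab1 and Mrgprb2 had 0 reads in all 9 GMP libraries, Mcpt4 had 1 read in 1 library, Cma1 and Tpsb2 had at most 10 reads, and Kit, which progenitors share, made up nearly all of the sum of 20.7 to 25.1 FPKM.

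The genes whose pattern over the 9 GMP libraries was most like the mean of the 7 were Cd300a (Pearson r = 0.988), Npl (0.987), Fut4 (0.982), 2210016F16Rik (0.981) and Alox15 (0.979), out of 6462 candidates. These are descriptions over shared libraries. Alox15, a lipoxygenase of eosinophils and macrophages, was at 78.1 ± 2.16, 8.49 ± 0.802 and 41.3 ± 1.56 FPKM under PBS, OMV-SIRP and OMV-SIRP-G, and Cd300a, an inhibitory receptor of myeloid cells, at 23.4 ± 1.03, 17.6 ± 0.0826 and 22.1 ± 0.458 FPKM. In monocytes the gene most like the mean of Mcpt8, Prss34 and Hdc was Prg2, the eosinophil major basic protein (r = 0.989 over 9 libraries), at 75.1 ± 42.9, 16.1 ± 1.07 and 27.8 ± 4.70 FPKM. Oaz2, Sp140, Sertad3 and Casp6 came next, at r of 0.984 to 0.986.

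In monocytes, 3 of the 7 genes passed the filter on low values, which kept genes that reached an FPKM of 1 in 3 or more of the 9 libraries. With OMV-SIRP, Prss34 and Hdc fell, 2 of the 3, where 5.46% of the 12028 genes tested were called lower. All 3 had OMV-SIRP libraries below all PBS libraries, as 16.5% of genes tested did. Prss34 was at 15.7, 33.2 and 15.6 FPKM under PBS, at 6.77, 5.29 and 5.79 after OMV-SIRP and at 9.42, 9.30 and 8.88 after OMV-SIRP-G. PBS replicate 2 stood far above the other two, and all treated libraries lay below PBS. The library size behind the FPKM of PBS replicate 2 was 0.768 of its total reads, against 0.944 and 0.943 in replicates 1 and 3. That scaling raises all FPKM of replicate 2. In reads, the PBS libraries held 322, 531 and 317 for Prss34 and 515, 551 and 526 for Hdc. The log2 change of Prss34 with OMV-SIRP was -1.61 ± 0.26 (adjusted p = 0.00899), and -1.26 without PBS replicate 2 (adjusted p = 5.14e-05). In a fit of only the 2 groups its adjusted p was 0.0554. Hdc was at 4.80, 6.58 and 4.93 FPKM under PBS, at 2.31, 1.91 and 2.24 after OMV-SIRP and at 4.89, 4.99 and 4.74 after OMV-SIRP-G. Its OMV-SIRP libraries stood below all others, with a log2 change of -1.02 ± 0.12 (adjusted p = 0.00266). Mcpt8 was at 4.95, 14.5 and 6.30 FPKM under PBS, at 3.12, 3.21 and 2.30 after OMV-SIRP and at 2.61, 2.26 and 2.47 after OMV-SIRP-G. All treated Mcpt8 libraries lay below all PBS libraries, but with the wide PBS group the adjusted p was 0.0561 for OMV-SIRP (log2 change -1.19 ± 0.31) and 0.0616 for OMV-SIRP-G (-1.35 ± 0.31). Without PBS replicate 2 these were 0.00349 and 0.00294 (log2 changes -0.77 and -0.94), and without PBS replicate 1 they were 0.0346 and 0.0396.

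With OMV-SIRP-G against PBS, limma called 0 of the 3 genes in monocytes, where 2.14% of genes tested were called lower. At an unadjusted p under 0.05, 2 of 3 passed, and limma voom on recovered reads called 0. Prss34 and Mcpt8 had groups that did not overlap, as 11.5% of genes tested did in that direction. The Prss34 difference was -1.05 ± 0.26 (adjusted p = 0.0763), and -0.71 without PBS replicate 2 (adjusted p = 0.00171). The Hdc difference was -0.12 ± 0.12 (adjusted p = 0.658). Against OMV-SIRP, Hdc was higher with OMV-SIRP-G (0.90 ± 0.12, adjusted p = 0.0102), 1 of the 3 genes, where 1.59% of genes tested were called higher. That call was lost on leaving out any 1 of the 6 libraries compared, at adjusted p from 0.0522 to 0.0677.

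Other markers also set monocyte PBS replicate 2 apart. The eosinophil marker sum was 135 FPKM in it and 57.6 to 58.2 in the other PBS libraries, against 18.3 to 19.8 after OMV-SIRP and 27.0 to 38.2 after OMV-SIRP-G. Prg2 made up most of that sum, at 51.1, 125 and 49.6 FPKM under PBS. Among the PBS libraries Prg2, Epx and Prg3 were highest in replicate 2, while Siglecf, Ccr3 and Il5ra were not. The GMP marker sum was 1908 in PBS replicate 2, 877 to 893 in the other two, 533 to 599 after OMV-SIRP and 316 to 361 after OMV-SIRP-G. The erythroid sum was 384, 122 to 137, 7.80 to 8.31 and 15.1 to 18.8 in the same order. The 7 monocyte markers stayed between 2208 and 2572 in all 9 libraries. Of 6 mast cell markers, Tpsb2, Tpsab1, Mcpt4 and Mrgprb2 were at 0 in all 9 and Cma1 had 1 read in 1. The sixth, Kit, which progenitors share, was detected in all 9, at 0.464 to 1.30 FPKM. The part of these marker shifts in the changes of Prss34, Mcpt8 and Hdc was not tested. Of the 36 genes of the related lists tested in monocytes, 3 were called lower and 1 higher with OMV-SIRP, where 5.46% and 3.07% of all genes tested were. No result about the lists is read from these calls. Csf1 (-0.79 ± 0.10), Gata2 (-0.66 ± 0.12) and Srgn, the proteoglycan core of granules (-1.39 ± 0.23), were the 3 lower genes, and Cd34, a progenitor surface protein, the higher one (0.69 ± 0.10). Gata2 reached an FPKM of 1 in the PBS libraries only, so it was tested only through the group where it is high.

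**Figure D4:**
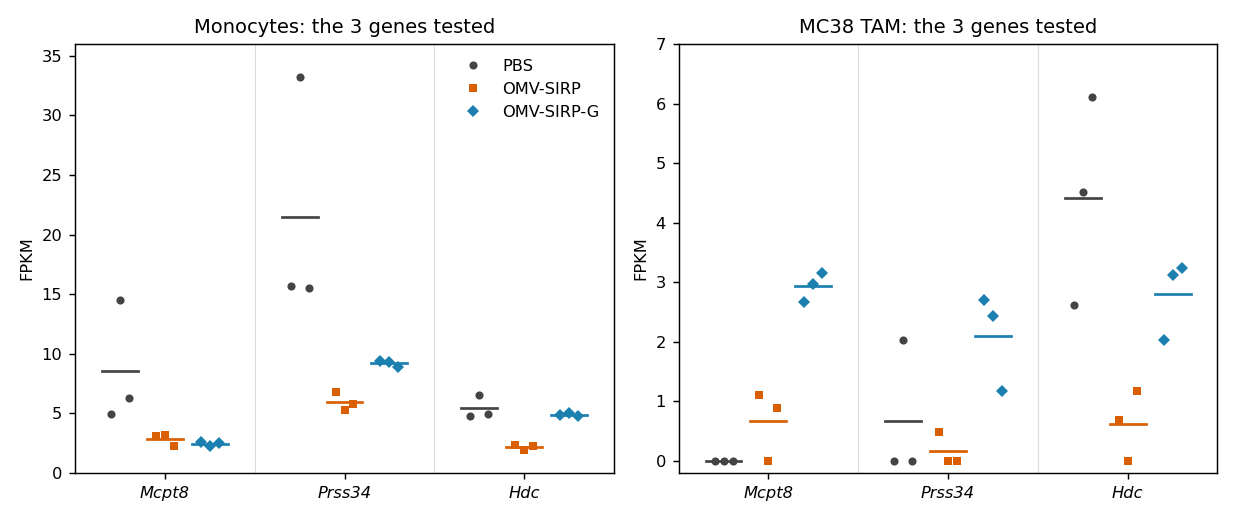
FPKM of Mcpt8, Prss34 and Hdc in each library of monocytes and MC38 TAM, on separate scales. Points are libraries and bars are means of 3. Monocyte PBS replicate 2 lies at 33.2 FPKM for Prss34, and in MC38 TAM Mcpt8 is at 0 in the 3 PBS libraries and at 2.67 to 3.16 FPKM after OMV-SIRP-G.

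In B16 TAM the basophil genes were at or near 0. Prss34 had 0 reads in all 9 libraries, Mcpt8 had 4 and 14 reads in 2 PBS libraries and 0 in the other seven, Fcer1a had 5 reads and Ms4a2 8 reads in 1 library each, and Cd200r3 had 3 to 26 reads in 3 libraries. Hdc stayed at or under 0.682 FPKM. A count of 0 allows up to 3 reads per library, for counting error only, since reads without molecular identifiers are not independent molecules. Cpa3, the only one of the 7 that was tested, had 22, 36 and 8 reads under PBS (1.07, 1.58 and 0.339 FPKM), 47, 59 and 0 after OMV-SIRP (2.22, 2.52 and 0 FPKM) and 0 in the 3 libraries after OMV-SIRP-G. The OMV-SIRP libraries were split, and the OMV-SIRP-G libraries lay below all PBS libraries, as 18.6% of genes tested did. The Cpa3 mean was at least 7.54-fold lower with OMV-SIRP-G than under PBS, taking 3 reads per library as the floor. This bound is for counting error only. Zeros beside a replicate with 20 or more reads, at 20.7% of such genes in the OMV-SIRP-G libraries, are not covered by it. Limma called 0 of the 7 in any comparison, at adjusted p of 0.948 for OMV-SIRP, 0.239 for OMV-SIRP-G and 0.166 between them, where 1.45%, 15.1% and 12.0% of the 12542 genes tested were called in either direction. At an unadjusted p under 0.05 it passed between the treatments only, and limma voom called 0 in each comparison. Without OMV-SIRP replicate 3, the library with 0 reads, Cpa3 was called lower with OMV-SIRP-G than with OMV-SIRP (log2 change -1.75, adjusted p = 0.0169).

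Mast cell proteases were low in B16 TAM, and Mcpt4, Cma1, Tpsb2 and Tpsab1, like Cpa3, had 0 reads in all 3 OMV-SIRP-G libraries. Mcpt4, a chymase of connective tissue mast cells, was at 4.27, 2.47 and 2.26 FPKM under PBS (39 to 64 reads), at 5.11, 7.49 and 7.73 after OMV-SIRP (79 to 128 reads) and at 0 after OMV-SIRP-G. With 3 reads per library as the floor, for counting error only, Mcpt4 was at least 16.6-fold lower with OMV-SIRP-G than under PBS (adjusted p = 0.000531). On the same floor it was at least 37.4-fold lower than with OMV-SIRP (adjusted p = 0.00011). That floor does not cover zeros beside a replicate with 20 or more reads, at 20.7% of such genes in the OMV-SIRP-G libraries. Between OMV-SIRP and PBS the Mcpt4 difference was 0.98 ± 0.25 (adjusted p = 0.116). The rest of the marker list is given whole. The chymase gene Cma1 was at 1.90, 3.92 and 1.47 FPKM under PBS, 3.03, 2.38 and 5.96 after OMV-SIRP and 0 in all OMV-SIRP-G libraries (adjusted p = 0.0069 against PBS). The tryptase gene Tpsb2 was at 0.834, 2.09 and 1.89, then 1.89, 3.09 and 3.85, then 0 in all 3 (adjusted p = 0.0133 against PBS). Tpsb2 passed the filter on low values only through the OMV-SIRP libraries, where its mean is highest, so its p-value carries that limit. Mcpt4 and Cma1 passed that filter only through the PBS and OMV-SIRP libraries where they are high, so their OMV-SIRP-G p-values carry a like limit. Tpsab1 had 9 reads in a PBS and 4 in an OMV-SIRP library, Mrgprb2, a mast cell receptor for cationic peptides, had 0 reads in all 9, and Kit, which melanocytes also express, was at 0.797 to 2.57 FPKM. The melanocyte marker sum was 2800.3 to 3053 FPKM under PBS, 2288 to 2531 after OMV-SIRP and 773 to 879 after OMV-SIRP-G, and the macrophage sum 4879.9 to 5464, 4324 to 6279.9 and 9366 to 9870.5. The part of these shifts in the protease differences was not tested.

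**Figure D5:**
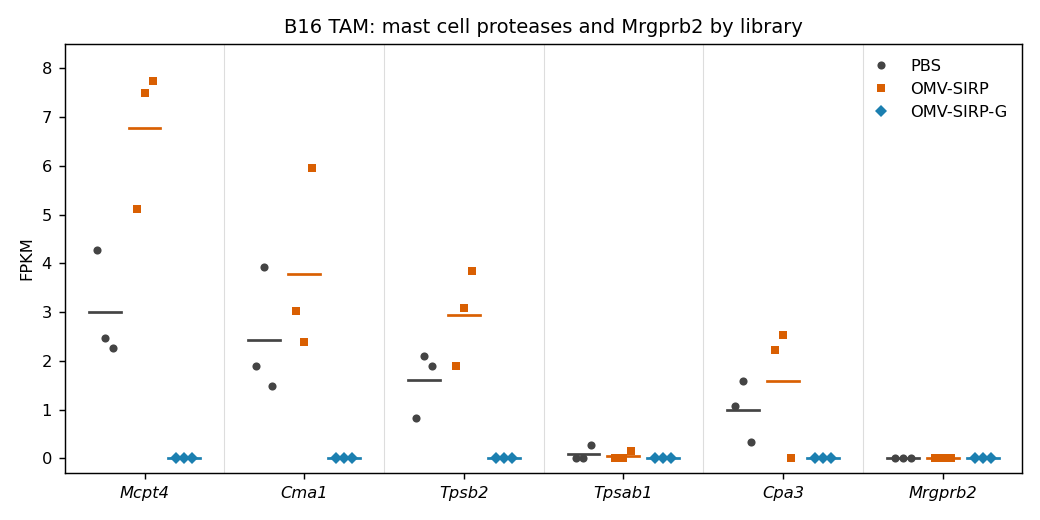
FPKM of mast cell genes in each B16 TAM library. Points are libraries and bars are means of 3. Mcpt4, Cma1, Tpsb2 and Cpa3 are at 0 in all 3 OMV-SIRP-G libraries.

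Genes of the IgE receptor signalling list were mostly higher in the OMV-SIRP-G libraries of B16 TAM. Of 14 tested, 9 were higher and 3 lower with OMV-SIRP-G against PBS, where 7.83% and 7.28% of all genes tested were, and the median log2 change was 0.64. Fcer1g, the gamma chain that the IgE receptor shares with IgG receptors of macrophages, went from 449 ± 14.9 to 1001 ± 26.8 FPKM (1.16 ± 0.13, adjusted p = 0.000309), and the kinase genes Lyn (1.25 ± 0.12) and Syk (0.88 ± 0.13) rose as well. Fcer1a and Ms4a2, the chains specific to the IgE receptor, were not detected at this depth after either treatment. Under PBS they had 5 and 8 reads, in 1 library each, so no change of theirs can be read.

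In MC38 TAM, 3 of the 7 genes were tested. Mcpt8 and Prss34 passed the filter on low values only through the OMV-SIRP-G libraries, where they are high, so no count over the tested genes is given for OMV-SIRP-G against PBS. Mcpt8 had 0 reads in each PBS library, 15, 0 and 14 after OMV-SIRP and 42, 49 and 53 after OMV-SIRP-G, the last at 2.67 to 3.16 FPKM. The OMV-SIRP-G libraries lay above all others, and above all PBS libraries as 25.5% of genes tested did. With 3 reads per library as the floor, for counting error only, Mcpt8 was at least 17.6-fold higher with OMV-SIRP-G than under PBS (adjusted p = 0.00747, and 0.0195 without the filter). In that comparison 13.1% of the 14089 genes tested were called higher. The floor does not cover zeros beside a replicate with 20 or more reads, at 38.2% of such genes in the PBS libraries. Prss34 had 0, 50 and 0 reads under PBS, 8, 0 and 0 after OMV-SIRP and 52, 49 and 24 after OMV-SIRP-G. PBS replicate 2 thus held a count within the range of the OMV-SIRP-G libraries. The Prss34 difference between OMV-SIRP-G and PBS was 1.06 ± 0.51 (adjusted p = 0.173, and 0.32 without the filter), and 1.59 without PBS replicate 2 (adjusted p = 0.0408), when no library outside the OMV-SIRP-G group reaches an FPKM of 1.

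Hdc was highest in MC38 TAM under PBS by its mean. It was at 2.61, 4.51 and 6.12 FPKM under PBS, at 0.695, 0 and 1.17 after OMV-SIRP and at 2.03, 3.13 and 3.25 after OMV-SIRP-G. The OMV-SIRP libraries lay below all others. Hdc was called lower with OMV-SIRP (-1.76 ± 0.40, adjusted p = 0.0259), 1 of 3 genes, where 3.49% of genes tested were called lower. That call was lost without PBS replicate 2 (adjusted p = 0.0655), PBS replicate 3 (0.0567) or OMV-SIRP replicate 1 (0.0622). It was also lost in a fit of only the 2 groups (0.0961) and with limma voom (0.0859). Between OMV-SIRP-G and OMV-SIRP limma called 0 of 3, where 0.383% of genes tested were called in either direction. All 3 passed at an unadjusted p under 0.05, which for Mcpt8 and Prss34 is subject to the same limit, and limma voom called 0.

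The remaining 4 genes were sparse in MC38 TAM. Cpa3 had 12 reads in 1 library, Fcer1a 9 and 14 reads in 2, Ms4a2 1 to 16 reads in 3, and Cd200r3 9 to 50 reads in 5 of the 9. Of the mast cell markers, Tpsab1, Mcpt4 and Mrgprb2 were at 0 in all 9 libraries and Tpsb2 had 16 reads in 1, while Cma1 had 0 reads under PBS, 7 to 94 after OMV-SIRP and 52 to 119 after OMV-SIRP-G. Kit was at 3.64 to 6.88 FPKM under PBS, 2.16 to 4.85 after OMV-SIRP and 5.35 to 8.31 after OMV-SIRP-G. The comparisons with PBS rest on the 3 libraries that nearly lacked macrophage markers. Their neutrophil marker sum was 248 to 549 FPKM, against 30.5 to 156 after OMV-SIRP and 31.8 to 47.6 after OMV-SIRP-G. Mitochondrial genes took 2.98% to 5.07% of their reads, against 15.2% to 21.5% and 6.06% to 6.46%. This difference in makeup cannot be told apart from the treatment for Mcpt8 and Hdc.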

How the data were processed

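RNA-seq libraries from 36 samples (4 populations, 3 treatments, 3 libraries each) were used as the authors deposited them, as FPKM per gene in 3 tables, 1 of them shared by GMP and monocytes. Per the labels' protocols, RNA was extracted with TRIzol and libraries were made with a NEBNext mRNA kit. Per the submitters' processing notes, GRCm38, HISAT2 2.0.5, StringTie and featureCounts 1.5.0-p3 were used. FPKM times gene length gave whole multiples of 1 read for all values (tolerance 0.05), so read counts and depths (13036567 to 19822660 reads) were recovered. Within a table the FPKM also carry a scaling factor per library, so each population was tested on its own. Genes reaching an FPKM of 1 in at least 3 of the 9 libraries were tested on log2(FPKM + 1) with limma 3.58.1 (trend and robust empirical Bayes, all 9 libraries in 1 fit, R 4.3.3), with Benjamini-Hochberg adjustment over all genes tested and a threshold of 0.05. Fold changes on this scale understate the change of low genes. A single p not taken from that fit is from an exact permutation test. The fit was tested on simulated data. The 7 genes and all lists were chosen with earlier results of these data known. Named list genes were the 4 with the lowest adjusted p against PBS per list and population, and pattern-like genes the 5 with the highest r among protein-coding genes with a mean FPKM of at least 5. Alternatives were a pseudocount of 0.1, no filter, scaling to total reads, a fit of the 2 groups compared, a replicate block, each library left out, and limma voom on recovered reads, the last chosen after seeing the data.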

Additional observations from a re-analysis of the deposited data

Results flagged for a closer look

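Mcpt8 went opposite ways with OMV-SIRP-G against PBS. In MC38 TAM every OMV-SIRP-G library lay above every PBS library (log2 change 1.97), as 25.5% of genes tested did there. Mcpt8 had 0 reads in those PBS libraries, which nearly lacked macrophage markers. It passed the filter in MC38 TAM only through the OMV-SIRP-G libraries. In GMP (-0.55) and in monocytes (-1.35) every OMV-SIRP-G library lay below every PBS library. Cpa3 was higher in every OMV-SIRP-G library of GMP than in any PBS library (0.20) and lower in every OMV-SIRP-G library of B16 TAM (-0.95), where it had 0 reads. Neither change of Cpa3 passed the limma test, nor did that of Mcpt8 in monocytes. The differences between populations were not tested. The tumour tables were scaled separately from the bone marrow table.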

How the results depend on the processing

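In GMP the number of the 7 genes called stayed at 5 to 7 with OMV-SIRP, 4 to 5 with OMV-SIRP-G and 6 to 7 between them under every alternative run. The calls in monocytes and tumours were less stable. In monocytes, OMV-SIRP against PBS gave 1 call with a fit of only the 2 groups, against 2 in the report. OMV-SIRP-G against PBS, with 0 calls, gave 1 with a pseudocount of 0.1, 2 with total-read scaling and 0 to 2 on leaving out 1 library (1 without PBS replicate 1, 2 without PBS replicate 2). OMV-SIRP-G against OMV-SIRP, with 1 call, gave 2 with the 2-group fit and 0 without any 1 library. In B16 TAM, OMV-SIRP-G against OMV-SIRP gave 0 to 1 calls on leaving out a library. In MC38 TAM, OMV-SIRP against PBS, with 1 call, gave 0 with a pseudocount of 0.1, 0 without the filter and 0 with the 2-group fit. It gave 0 with limma voom and 0 to 1 on leaving out a library. For OMV-SIRP-G against PBS no count is given, since Mcpt8 and Prss34 passed the filter only through the OMV-SIRP-G libraries.

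Directions reversed only for values that did not pass the test. The Hdc difference between OMV-SIRP-G and PBS ranged from -0.054 to 0.011 in GMP on leaving out a library, and from -0.19 to 0.0034 in monocytes. Cpa3 in B16 TAM with OMV-SIRP was -0.17 with a pseudocount of 0.1, -0.64 with limma voom, and -0.10 to 0.80 on leaving out a library. Prss34 in MC38 TAM with OMV-SIRP ranged from -0.61 to 0.19. The causes were not tested.

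Whether replicate numbers pair the samples was not tested. Deviations of same-numbered libraries correlated above 0.1 in 3 of 9 pairs in GMP, 2 of 9 in monocytes and 0 of 9 in each tumour. The correlations ran from -0.020 to 0.223 in GMP and from -0.370 to 0.250 in monocytes. In each population the same-numbered library was the best match in some pairs and not in others. With the replicate block, OMV-SIRP-G against OMV-SIRP gave 0 calls in monocytes, and GMP gave 5, 4 and 6. The calls lost were Hdc in monocytes (adjusted p = 0.0632) and Cpa3 in GMP with OMV-SIRP (0.0502), and no other call of the 7 genes changed. With total-read scaling the counts of all genes called lower and higher went from 924 and 1308 to 1825 and 821 in GMP with OMV-SIRP and from 998 and 823 to 606 and 1344 between the treatments, from 657 and 369 to 406 and 675 and from 102 and 191 to 188 and 142 in the same comparisons in monocytes, and in MC38 TAM from 492 and 1042 to 1635 and 697 with OMV-SIRP, from 966 and 1843 to 1431 and 1551 with OMV-SIRP-G and from 33 and 21 to 20 and 28 between them. That scaling moved the median log2 change by 0.14 in monocytes with OMV-SIRP, and in MC38 TAM by -0.29 with OMV-SIRP, -0.15 with OMV-SIRP-G and 0.15 between them.

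The number of all genes called moved by over 1.5 times under the alternatives given here. In GMP it was 2232, against 1390 to 2144 on leaving out a library, for OMV-SIRP. For OMV-SIRP-G in GMP it was 1471, against 892 to 1882 on leaving out a library. Between the treatments it was 1821, against 1068 to 1333 on leaving out a library. In monocytes it was 1026, against 366 to 3563 on leaving out a library, 520 with the replicate block and 284 with the 2-group fit, for OMV-SIRP. For OMV-SIRP-G in monocytes it was 442, against 202 to 1479 on leaving out a library, 242 with the replicate block and 177 with the 2-group fit. Between the treatments it was 293, against 59 to 76 on leaving out a library, 75 with the replicate block, 2118 with the 2-group fit and 154 without the filter. In B16 TAM it was 182, against 73 to 144 on leaving out a library and 112 without the filter, for OMV-SIRP. For OMV-SIRP-G in B16 TAM it was 1895, against 1177 to 1470 on leaving out a library. Between the treatments it was 1502, against 925 without the filter. In MC38 TAM it was 1534, against 728 to 2002 on leaving out a library, 2332 with total-read scaling, 409 with the 2-group fit and 762 without the filter, for OMV-SIRP. For OMV-SIRP-G in MC38 TAM it was 2809, against 1262 to 2679 on leaving out a library and 1725 without the filter. Between the treatments it was 54, against 0 to 189 on leaving out a library, 8 with the replicate block, 16 without the filter and 93 with limma voom. The planned count-model fits were not run, since the deposited unit is FPKM. Low read counts limit the tumour results, where 6 of the 7 genes had under 60 reads in every library. The cause of these low counts was not tested.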
